A study of Mus musculus and Homo sapiens with 33 samples.

Results

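NRF2 (NFE2L2), its inhibitor KEAP1 and the enzymes of glutathione, thioredoxin and NADPH metabolism were followed across both cEMSY overexpression experiments of the series. The genes are 41 redox genes chosen by name for their roles, not for their values, although earlier results of these data were known when they were chosen. All 41 matched a gene of the 20347 measured in the human libraries by symbol, and 6 matched a row of the 2509 in the mouse overexpression table when written in mouse case. The other 35 were not analysed here in mouse cells, where the authors deposited only rows they had called changed. Mouse thioredoxin and ferritin light chain now carry the symbols Txn1 and Ftl1, and these gave no row either. Matching by letters does not ensure that genes of large families, such as glutathione transferases, are counterparts.

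The series holds 33 total RNA libraries, 3 in each of 11 groups. Here 12 of them were used. The human groups were labelled H358, a non-small cell lung cancer line, with overexpression of the circular RNA cEMSY or with an empty vector and a wild-type genotype label. The mouse groups were LLC1, a Lewis lung carcinoma line, with cEmsy overexpression or with an empty vector and a wild-type genotype label. How the circular RNA was delivered, and whether a line was 1 clone, is not stated in the labels. For the 21 drug-treated and DMSO libraries the authors listed only circular RNAs they had chosen. Of these 472 listed junctions 0 overlapped 1 of the 41 genes, which does not cover circles left out of the list.

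NRF2 is a transcription factor that KEAP1 holds in the cytosol and hands to a ubiquitin ligase. When oxidants or electrophiles modify KEAP1, NRF2 accumulates, enters the nucleus and binds antioxidant response elements with small MAF partners. Its known targets make glutathione, reduce thioredoxin, supply NADPH, detoxify quinones and store iron, and lung cancers often carry mutations that keep the pathway on.

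EMSY, the parent gene of the circle, rose by 3.84 ± 0.07 (SE, log2) in the authors' deposited table, at a gene level that does not separate circular from linear RNA. Markers of the labelled line gave a mixed picture. H358 is known as an epithelial line, and in the authors' deposited table the epithelial genes CLDN7 and ESRP1 had mean signals of 3.64 and 3.24 and EPCAM 40.7. CDH1, the epithelial cadherin gene, had 1028, the keratin genes KRT7, KRT8 and KRT18 had 31920, 41881 and 38482, and VIM, the mesenchymal filament gene, had 20718. The libraries are therefore called those labelled H358. Of 13 lung epithelial markers 10 had a value, and 5 fell and 2 rose with overexpression. KRT19 fell by 3.91, KRT7 by 1.05, KRT8 by 0.43, KRT18 by 0.38 and CDH1 by 0.37, while CLDN4 rose by 1.86 and MUC1 by 1.45 (log2). VIM fell by 0.77. Of 12 leukocyte, 8 endothelial, 8 fibroblast and 6 red blood cell markers, 4, 4, 4 and 0 had a value, with median mean signals of 71.4, 2.64 and 6.72 for the first 3 lists. The leukocyte and macrophage marker CD68, which lysosomes of other cells also carry, fell by 0.75 and of the endothelial genes EGFL7 rose by 0.84 and CDH5 fell by 4.96 at a mean signal of 2.75 (log2, authors' deposited table). The part of these markers in the results was not tested. The mouse table, restricted to changed rows, could not be used to check the line.

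For 4 of the 6 genes found in the mouse table, RefSeq gives a start site and the sequence before it (build GRCm38.p6). They are shown because these genes rose together in LLC1. Each run is the 250 bases before the start, 5′ to 3′ on the gene's strand, and capitals mark any match to TGACNNNGC, the core of the antioxidant response element, on either strand.
Pir, chrX:164269181-164269430, plus strand: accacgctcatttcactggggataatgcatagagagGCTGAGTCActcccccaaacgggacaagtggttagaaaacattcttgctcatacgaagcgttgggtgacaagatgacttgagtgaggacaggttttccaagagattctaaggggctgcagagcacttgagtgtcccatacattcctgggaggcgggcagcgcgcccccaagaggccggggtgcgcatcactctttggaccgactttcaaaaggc
Mgst1, chr6:138140277-138140526, plus strand: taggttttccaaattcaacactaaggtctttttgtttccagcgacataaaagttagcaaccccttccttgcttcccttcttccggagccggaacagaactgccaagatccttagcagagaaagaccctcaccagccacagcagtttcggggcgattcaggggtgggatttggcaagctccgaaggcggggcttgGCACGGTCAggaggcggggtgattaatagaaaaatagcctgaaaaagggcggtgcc
Cat, chr2:103485154-103485403, minus strand: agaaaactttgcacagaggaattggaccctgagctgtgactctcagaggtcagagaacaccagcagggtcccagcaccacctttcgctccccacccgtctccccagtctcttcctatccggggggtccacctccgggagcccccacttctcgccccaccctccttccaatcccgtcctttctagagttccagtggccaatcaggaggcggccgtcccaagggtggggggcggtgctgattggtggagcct
Ephx1, chr1:181017570-181017819, minus strand: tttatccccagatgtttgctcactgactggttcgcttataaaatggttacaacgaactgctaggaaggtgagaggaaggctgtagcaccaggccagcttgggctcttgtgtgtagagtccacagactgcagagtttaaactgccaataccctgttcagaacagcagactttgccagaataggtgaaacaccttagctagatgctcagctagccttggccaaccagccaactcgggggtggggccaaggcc
The match in Pir reads TGACTCAGC on the opposite strand and lies at position -214 from the start site. Another match, TGACTCCGC, lies 20 bases after that start, beyond the printed run. The match in Mgst1 reads TGACCGTGC on the opposite strand at position -56, and the other Mgst1 window of the table held none. Cat and Ephx1 held no match in their windows of 300 bases, which run to 50 bases after the start.

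RefSeq windows existed for 34 of the 41 genes, 42 windows in all. Of these 10 (23.8%) held TGACNNNGC on either strand, against 4071 of all 32851 windows (12.4%). The stricter TGACTCAGC, which is contained in the first motif and itself contains the AP-1 site, was found in 2 of the 42, those of Pir and Prdx1, and in 149 of all windows (0.454%). Other genes with a match were Abcc2 (TGACATAGC), Gclm (TGACGGTGC), Nfe2l2 (TGACTCCGC), Pgd (TGACATTGC), Sod1 (TGACCACGC), Srxn1 (TGACCTAGC) and Txnrd1 (TGACAAAGC). Enhancers farther away were not searched. A match is a string of letters, not a measured binding site.

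The question put to the libraries labelled H358 was how the redox genes differed between cells overexpressing cEMSY and cells with an empty vector. Most of the glutathione supply chain and thioredoxin were lower, catalase, GPX4 and the mitochondrial peroxiredoxins were higher, and NRF2 itself, NQO1 and the efflux pumps did not pass the test. Of the 41 genes 17 fell, 11 rose, 12 did not pass and 1 had no adjusted p, at an adjusted p of 0.05 in the authors' deposited table. Among the 19154 genes of the table with an adjusted p, 16.8% fell and 15.6% rose, 32.4% in all. Most of the 41 genes are well expressed, and 36 of the 41 had a mean signal of at least 1000, where changes are measured more closely. Among all 3904 genes at that level 38.9% fell and 17% rose (55.9% in all), against 41.7% and 27.8% of the 36. The share that fell was thus near that of other well expressed genes. The median log2 change was -0.07 over the 41 genes and 0.04 over all genes, and -0.04 and -0.12 at a mean signal of at least 1000. Of the 28 changes 17 lay under 0.5 and 11 at or above it on the log2 scale, and the authors' own flag, which in their table also goes with a log2 change above 1, marked GPX2 alone. That flag marked 9.23% of the 19644 genes that carry one. Values per library were not used here for these cells, so the errors are those the authors deposited (3 libraries per group). In bulk libraries fewer cells expressing a gene and less RNA per cell cannot be told apart.

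**Figure D1:**
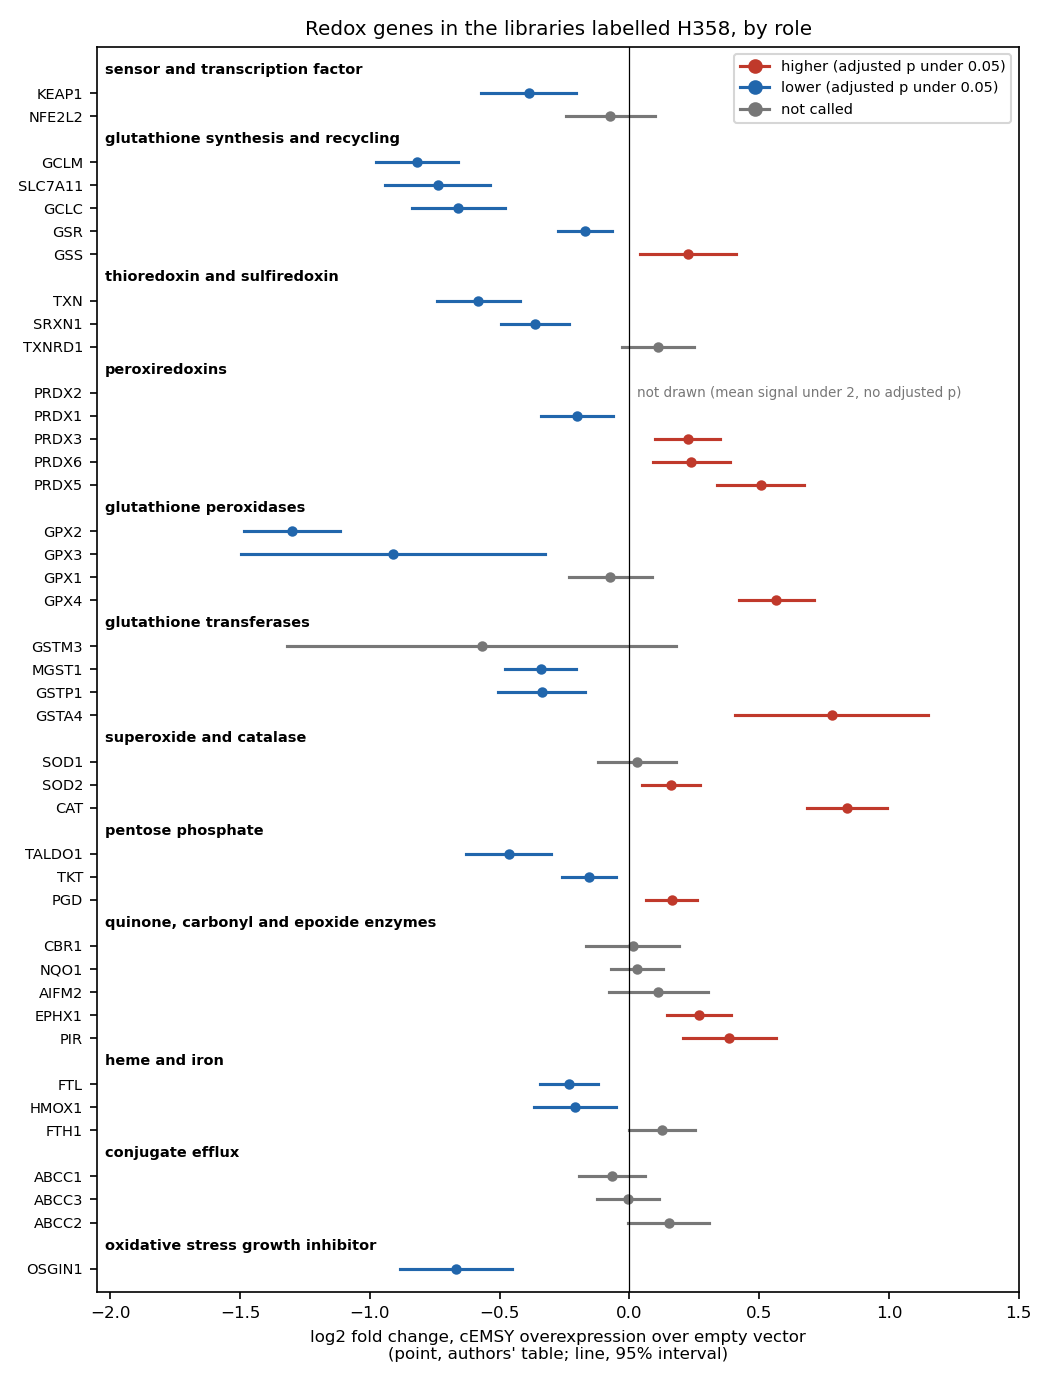
Log2 fold change of each redox gene with cEMSY overexpression in the libraries labelled H358, from the authors' deposited table, with its 95% interval, grouped by role. Of the genes drawn, which leave out the hardly detected PRDX2, GPX2 lies lowest at -1.30 and CAT highest at 0.84, and the glutathione synthesis genes SLC7A11, GCLC and GCLM lie between -0.82 and -0.66.

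Of the sensor pair KEAP1 passed the test and NFE2L2 did not, and the difference between them was not tested. KEAP1, the NRF2 inhibitor, fell by 0.39 ± 0.09 (SE of the log2 change; adjusted p = 0.0002) in the authors' deposited table. NFE2L2, at a mean signal of 3187, stood at -0.07 with a 95% interval from -0.24 to 0.10 (adjusted p = 0.583). OSGIN1, an NRF2 target that restrains growth under oxidative stress, fell by 0.67 ± 0.11 (adjusted p = 2e-08).

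Glutathione is built from cystine-derived cysteine in 2 steps and recycled by a reductase, and 4 of these 5 genes fell. SLC7A11, the cystine importer of system xc-, had a mean signal of 10329 and fell by 0.74 ± 0.10 (SE of the log2 change; adjusted p = 1.42e-11) in the authors' deposited table, where the level fell by 40.1%. GCLC, the catalytic subunit of the rate-limiting glutamate-cysteine ligase, fell by 0.66 ± 0.09 (adjusted p = 1.03e-11). GCLM, the modifier subunit of the same ligase, fell by 0.82 ± 0.08 (adjusted p = 1.69e-22), and thus the level fell by 43.3%. The 95% intervals of the importer and both ligase subunits overlapped. GSR, which regenerates reduced glutathione with NADPH, fell by 0.17 ± 0.05 (adjusted p = 0.0055). GSS, the synthase of the last step, was higher by 0.23 ± 0.09 at the edge of the threshold (adjusted p = 0.0496). Its call was lost when p-values were adjusted over every gene with a p-value (0.0526) and when changes were centred on the median gene (0.114).

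In the thioredoxin branch, which reduces protein disulfides and peroxiredoxins, TXN and SRXN1 fell. TXN itself fell by 0.58 ± 0.08 (SE of the log2 change; adjusted p = 1.14e-11) in the authors' deposited table. SRXN1, which restores overoxidized peroxiredoxins, fell by 0.36 ± 0.07 (adjusted p = 6.18e-07). TXNRD1, the selenoprotein reductase of thioredoxin, had a mean signal of 41952 and a change of 0.11 with a 95% interval from -0.03 to 0.25 (adjusted p = 0.247). The interval of the reductase lay wholly above that of thioredoxin, its substrate.

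The peroxidases and catalase, which remove hydrogen peroxide and lipid peroxides, split by gene. CAT, the peroxisomal catalase, rose by 0.84 ± 0.08 (SE of the log2 change; adjusted p = 1e-24) in the authors' deposited table, a gain of 78.7%. PRDX5, found in mitochondria and peroxisomes, rose by 0.51 ± 0.09 (adjusted p = 4.91e-08). Mitochondrial PRDX3 rose by 0.22 ± 0.06 (adjusted p = 0.00203), and PRDX6, which also reduces phospholipid peroxides, rose by 0.24 ± 0.08 (adjusted p = 0.00697). Cytosolic PRDX1 fell by 0.20 ± 0.07 (adjusted p = 0.0169). PRDX2 was hardly detected, with a mean signal of 1.68, and carried no adjusted p.

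Superoxide dismutases turn superoxide into the peroxide that these enzymes remove. Mitochondrial SOD2 rose by 0.16 ± 0.06 (SE of the log2 change; adjusted p = 0.0204) in the authors' deposited table, a call lost on median-centred changes (0.0886). Cytosolic SOD1 stood at 0.03 with a 95% interval from -0.12 to 0.18 (adjusted p = 0.833).

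Glutathione peroxidases ranged from -1.30 to 0.57 on the log2 scale. GPX2, an epithelial enzyme and known NRF2 target, fell by 1.30 ± 0.09 (SE of the log2 change; adjusted p = 2.43e-41) in the authors' deposited table, and its level fell by 59.4%. GPX3, the secreted form, fell by 0.91 ± 0.30 (adjusted p = 0.00937) at a mean signal of 105. GPX4, which reduces phospholipid peroxides and blocks ferroptosis, rose by 0.57 ± 0.07 (adjusted p = 4.01e-13). GPX1, the common cytosolic form, stood at -0.07 with a 95% interval from -0.23 to 0.09 (adjusted p = 0.548). The 4 enzymes and TXNRD1 are selenoproteins, so the selenoproteins among the 41 genes included genes that fell, rose or did not pass.

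**Figure D2:**
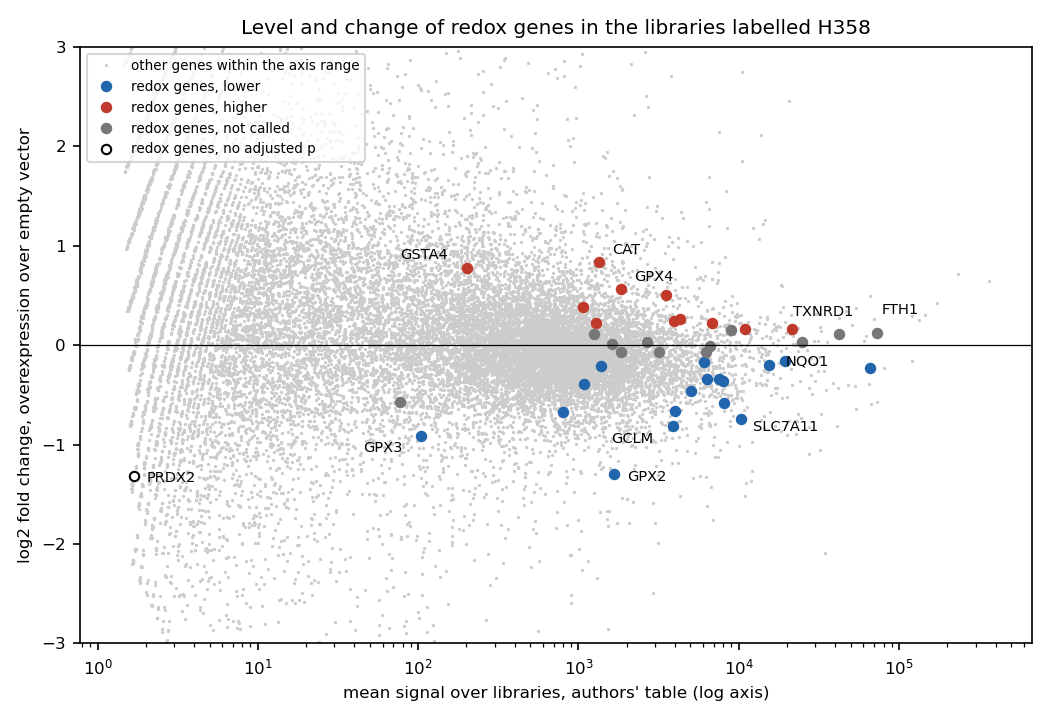
Mean signal (log axis) against log2 fold change for all genes of the authors' deposited table between -3 and 3 and, in colour, the redox genes. GPX2, GCLM and SLC7A11 lie at the lower edge of the genes of like signal and CAT and GPX4 toward the upper edge, while TXNRD1, NQO1 and FTH1 lie near 0 at high signal.

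Transferases join glutathione to electrophiles, and here they also diverged. GSTA4, which takes up the lipid peroxidation product 4-hydroxynonenal, rose by 0.78 ± 0.19 (SE of the log2 change; adjusted p = 0.000263) in the authors' deposited table at a mean signal of 202. GSTP1 fell by 0.34 ± 0.08 (adjusted p = 0.000372) and the microsomal MGST1 by 0.34 ± 0.07 (adjusted p = 9.57e-06). GSTM3, at a mean signal of 76.8, stood at -0.57 with a wide 95% interval from -1.32 to 0.18 (adjusted p = 0.272).

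NADPH for these reductases comes from the pentose phosphate pathway. TALDO1, a transaldolase of its non-oxidative arm, fell by 0.47 ± 0.08 (SE of the log2 change; adjusted p = 2.29e-07) in the authors' deposited table. TKT, the transketolase of the same arm, fell by 0.16 ± 0.05 (adjusted p = 0.0134). PGD, an NADPH-forming dehydrogenase of the oxidative arm, rose by 0.16 ± 0.05 (adjusted p = 0.00517).

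Of the quinone, carbonyl and epoxide enzymes 2 rose and 3 did not pass. EPHX1, which opens epoxides, rose by 0.27 ± 0.06 (SE of the log2 change; adjusted p = 0.000122) in the authors' deposited table. PIR, an iron-binding nuclear protein, rose by 0.39 ± 0.09 (adjusted p = 0.000152). NQO1, the quinone reductase used most often as a readout of NRF2, had a mean signal of 24788 and a change of 0.03 with a 95% interval from -0.07 to 0.13 (adjusted p = 0.738). AIFM2, which reduces coenzyme Q against ferroptosis, stood at 0.11 (95% interval -0.08 to 0.30) and CBR1, a carbonyl reductase, at 0.01 (-0.17 to 0.19).

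Heme and iron genes changed little. HMOX1, which degrades heme, fell by 0.21 ± 0.08 (SE of the log2 change; adjusted p = 0.0298) in the authors' deposited table. FTL, the ferritin light chain, fell by 0.23 ± 0.06 (adjusted p = 0.000297), while FTH1, the heavy chain, stood at 0.13 with a 95% interval from -0.0006 to 0.25 (adjusted p = 0.128). Ferritin and peroxiredoxin genes have processed pseudogenes, and how reads were shared between copies is not given. None of the 3 pumps that export glutathione conjugates passed. ABCC1 stood at -0.07 (95% interval -0.19 to 0.06), ABCC2 at 0.15 (-0.0038 to 0.31) and ABCC3 at -0.01 (-0.12 to 0.11).

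Other genes of the pathway came from 7 lists of 138 genes, of which 118 had an adjusted p in the authors' deposited table. Of the 118, 35 fell and 31 rose. That is 55.9% called, against 32.4% of all genes and 55.9% of those with a mean signal of at least 1000. The median mean signal was 845 in these lists, 153 over all genes and 1891 in the set of at least 1000. Neither share is thus from genes of like level. Their median log2 change was 0.00, against 0.04 over all genes. Among NRF2 partners and regulators 4 of 15 fell and 2 rose. MAFK, a small MAF partner, rose by 1.15 ± 0.08 (log2, SE), whereas its relatives MAFG and MAFF fell by 0.36 ± 0.07 and 0.54 ± 0.22. CUL3, the scaffold of the ligase that KEAP1 recruits, fell by 0.41 ± 0.07. BACH1, a repressor at the same DNA elements, stood at 0.01 ± 0.13 (adjusted p = 0.985).

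Of 26 other known or proposed NRF2 targets with an adjusted p 11 fell and 5 rose. The share that fell, 42.3%, was near the 38.9% of all genes with a mean signal of at least 1000. AKR1B10, an aldo-keto reductase, fell by 2.09 ± 0.05 (SE, log2) in the authors' deposited table, and its level fell by 76.5% at a mean signal of 34653. AKR1C3 fell by 0.90 ± 0.06, with AKR1C paralogs so alike that read assignment is uncertain. CES1, a carboxylesterase, fell by 2.85 ± 0.38 and TRIM16 by 0.95 ± 0.07. ALDH3A1, an aldehyde dehydrogenase, went the other way and rose by 0.60 ± 0.06 (adjusted p = 9.31e-24).

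In the glutathione handling list 7 of 21 rose and 5 fell. CHAC1, which cleaves glutathione, rose by 1.99 ± 0.34 (SE, log2) in the authors' deposited table from a low mean signal of 58.9. CHAC2, its relative with the same activity, fell by 0.74 ± 0.16 and GGCT, which cleaves gamma-glutamyl amino acids, by 0.60 ± 0.09. OPLAH, which returns 5-oxoproline to glutamate, rose by 1.80 ± 0.18, CTH, which makes cysteine from cystathionine, by 1.65 ± 0.27 and GLRX, a glutaredoxin, by 1.28 ± 0.09. SLC3A2, the partner chain of SLC7A11, fell by 0.72 ± 0.07 (adjusted p = 4.06e-21).

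In the thioredoxin and methionine sulfoxide list 5 of 17 rose and 4 fell. SESN2 and SESN1, stress-induced sestrins, rose by 1.18 ± 0.23 and 0.69 ± 0.18 (SE, log2) in the authors' deposited table. MSRB1 rose by 0.90 ± 0.12 and its relative MSRB3, both methionine sulfoxide reductases, fell by 0.62 ± 0.10. In the ferroptosis and iron list 4 of 17 rose and 3 fell. ACSL4 and LPCAT3, which load polyunsaturated fatty acids into phospholipids, rose by 0.83 ± 0.07 and 0.85 ± 0.10. ACO1, an iron regulatory protein, fell by 0.60 ± 0.08 and COQ2, of coenzyme Q synthesis, by 0.43 ± 0.12.

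The NADPH supply list had 6 of 14 lower and 5 higher. ME3 fell by 1.21 ± 0.19 (SE, log2) in the authors' deposited table, NNT by 0.72 ± 0.26 and RPIA by 0.65 ± 0.16, while ALDH1L2 rose by 0.61 ± 0.17. Of the oxidant-producing enzymes 3 of 8 rose and 2 fell. XDH, xanthine dehydrogenase, fell by 1.04 ± 0.25 and RAC1 by 0.23 ± 0.06, and MAOA and CYBA rose by 0.81 ± 0.32 and 0.33 ± 0.09.

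**Figure D3:**
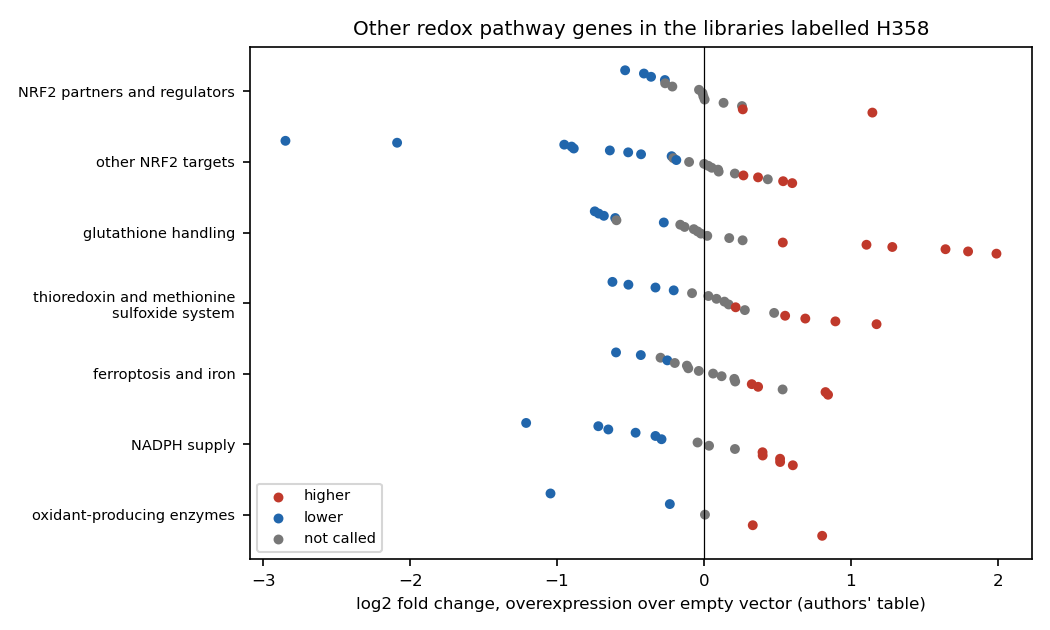
Log2 fold change of the other redox pathway genes in the authors' deposited table, 1 point per gene with a mean signal of 50 or more and an adjusted p. Every list holds genes on both sides of 0, and AKR1B10 (-2.09) and CHAC1 (1.99) are among the farthest out.

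In LLC1 the same comparison could be read for 6 of the genes, and all 6 rose. This table holds rows the authors had called changed. Of its 2111 rows tested with limma on log2(value + 1), 47.3% were higher and 52.6% lower at an adjusted p of 0.05, which rounds to 100% in all. Groups did not overlap in 99.8%, and in 47.2% overexpression lay wholly above. That the 6 passed therefore says nothing about them. Their adjusted p-values come from the same selected rows and add no support, and their levels and sizes are given as a description. The unit is not named and the depth is unknown.

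Hmox1, heme oxygenase (chromosome 8, 75093621 to 75100589, plus strand, mm10, GENCODE M21), stood at 306, 308 and 278 with empty vector and at 1071, 1050 and 786 with cEmsy overexpression. The groups did not overlap, and the third overexpression library was the lowest of its group, as it was for 5 of the 6 genes. The mean went from 297 ± 16.8 to 969 ± 159 (SD, n = 3 per group), a rise of 1.69 ± 0.11 on the log2(value + 1) scale (SE; limma, adjusted p = 3.06e-07).

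Ephx1, the epoxide hydrolase (chromosome 1, 180976210 to 181020904, minus strand), stood at 184, 181 and 171 with empty vector and at 655, 658 and 628 with overexpression. Its libraries lay close together in both groups, and it showed the largest rise of the 6. The mean went from 179 ± 6.6 to 647 ± 16.6 (SD, n = 3 per group), a rise of 1.85 ± 0.06 (SE; limma, adjusted p = 4.41e-09).

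Cat, catalase (chromosome 2, 103453849 to 103485160, minus strand), stood at 13.0, 14.6 and 12.3 with empty vector and at 32.1, 32.9 and 29.7 with overexpression. Every overexpression library was above every control, and the rise was 1.19 ± 0.08 on the log2(value + 1) scale (SE; limma, adjusted p = 2.81e-07). Gsta4, the 4-hydroxynonenal transferase (chromosome 9, 78182774 to 78209349, plus strand), went from 23.9, 23.5 and 24.1 to 54.5, 54.1 and 51.1. Both groups were tight, and the rise was 1.13 ± 0.06 (SE; limma, adjusted p = 6.91e-08).

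Mgst1, the microsomal transferase (chromosome 6, 138140316 to 138156755, plus strand), stood at 5.42, 4.87 and 5.09 with empty vector and at 11.4, 10.8 and 11.6 with overexpression. It was the 1 gene in which the third overexpression library was not the lowest. The rise was 1.00 ± 0.07 (SE; limma, adjusted p = 4.89e-07). Pir (chromosome X, 164269371 to 164373011, plus strand) went from 4.37, 5.22 and 3.82 to 9.34, 9.89 and 9.22. It had the widest relative spread among control libraries, and the rise was 0.95 ± 0.10 (SE; limma, adjusted p = 6.86e-06).

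**Figure D4:**
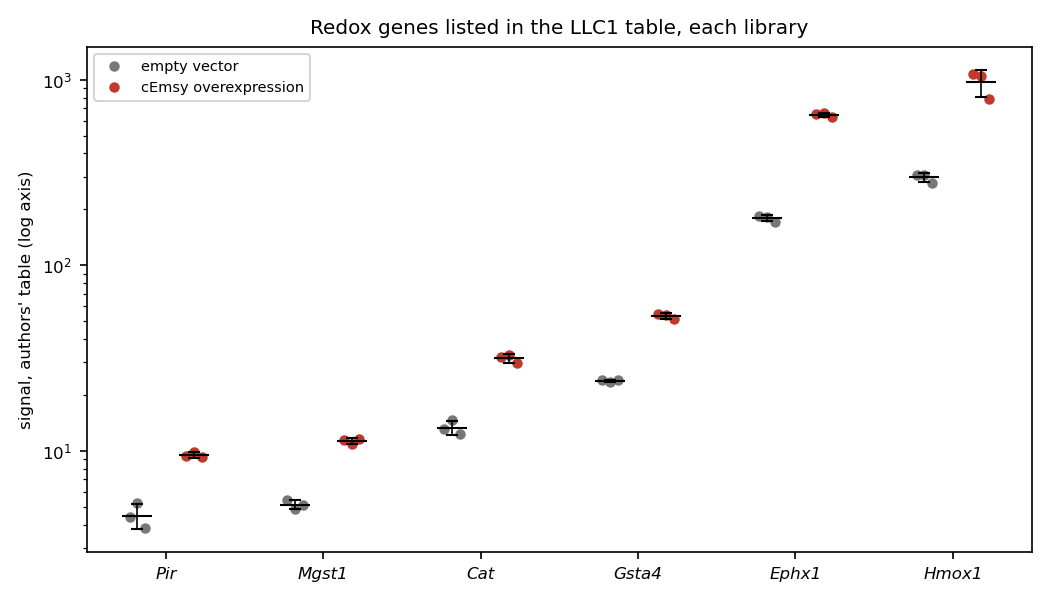
Signal of the 6 redox genes in each LLC1 library (points, log axis), with the mean and SD of each group of 3 as a bar. In all 6 genes the cEmsy overexpression libraries lie above the empty vector libraries, with Hmox1 going from a mean of 297 to 969.

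Of the 138 other pathway genes 20 had a row in the LLC1 table and 17 reached the mean of 0.5 needed for the test; 12 rose and 5 fell. Of all 2111 tested rows 47.3% were higher and 52.6% lower, so that the 17 passed says nothing about them. All 6 genes of the NRF2 target list rose. Whether rises were more frequent in these lists than among all rows was not tested. Abhd4 rose by 2.07 ± 0.09 on the log2(value + 1) scale (SE, limma), Gstm2 by 1.61 ± 0.08, Akr1b10 by 1.54 ± 0.07, Ptgr1 by 1.51 ± 0.10, the heme transporter gene Slc48a1 by 1.34 ± 0.11 and Gsta1 by 1.10 ± 0.07. Gstm2 and Gsta1 have near-identical copies in the mouse, so their read assignment is uncertain.

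Further rises in LLC1 were Gsto1, a glutathione transferase of the omega class, from a mean of 244 ± 10.6 to 692 ± 36.4 (SD, n = 3 per group), Lancl1 by 0.86 ± 0.16 (SE, limma), Sesn2 by 0.98 ± 0.07, Idh1 by 1.64 ± 0.07, Xdh by 2.36 ± 0.07 and Aldh1l1 by 1.79 ± 0.08. Aldh1l1 went from a mean of 0.02 to 2.53, low values at which adding 1 understates the rise. The 5 that fell were Slc3a2, Cth, Palb2, Bach2 and Dhodh. Slc3a2, the partner chain of the cystine importer, went from 482 ± 20.7 to 224 ± 15.5 (SD, n = 3 per group). Cth went from 1.63 ± 0.09 to 0.12 ± 0.05 (SD, n = 3 per group). Palb2, which can bind KEAP1, fell by 0.93 ± 0.10, Bach2, a relative of BACH1, by 0.45 ± 0.07 and Dhodh by 0.77 ± 0.10 (SE, limma). The macrophage and lysosome marker Cd68 also rose, from 2.46 ± 0.23 to 7.45 ± 1.40 (SD, n = 3 per group). Of the lung epithelial markers Krt7 rose from a mean of 0.32 to 2.88 and Napsa from 0.90 to 2.29. The fibroblast marker Col1a2, too low for the test, went from 0.22 to 0.07. The part of these markers in the other changes was not tested.

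Set side by side, 4 of the 6 genes rose in both lines and 2 went opposite ways. HMOX1 fell by 0.21 ± 0.08 in the authors' deposited table for the libraries labelled H358 while Hmox1 rose by 1.69 ± 0.11 in LLC1 (SE). MGST1 fell by 0.34 ± 0.07 and Mgst1 rose by 1.00 ± 0.07. EPHX1 rose in both, by 0.27 ± 0.06 and 1.85 ± 0.06. PIR rose by 0.39 ± 0.09 and 0.95 ± 0.10, and CAT, the most raised of the 41 genes in the libraries labelled H358, by 0.84 ± 0.08 and 1.19 ± 0.08. GSTA4 rose by 0.78 ± 0.19 and Gsta4 by 1.13 ± 0.06, with a difference of 0.35 ± 0.20 (SE) that did not pass (limma error in LLC1 and the authors' error in H358, adjusted p = 0.116 over the 6 genes). The mouse rows had been chosen for being changed and the human genes by name, so a larger change in LLC1 is favoured by the choice of rows.

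**Figure D5:**
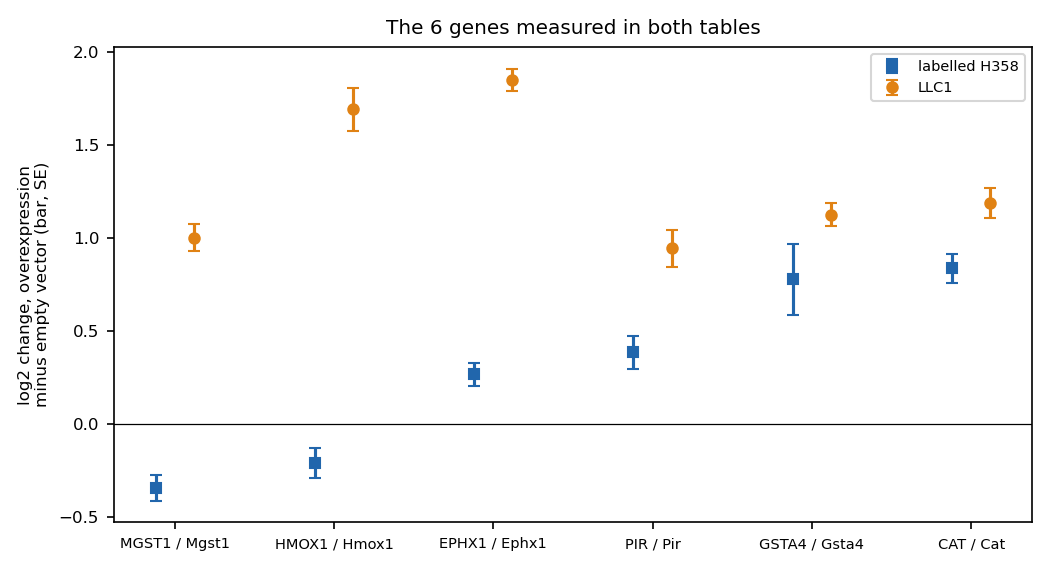
Log2 change with its SE for the 6 genes in the libraries labelled H358 (squares, authors' deposited table) and in LLC1 (circles, limma on log2(value + 1)). MGST1 (-0.34) and HMOX1 (-0.21) lie below 0 in the libraries labelled H358 and above it in LLC1 (1.00 and 1.69), and the other 4 lie above 0 in both.

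Other pathway genes with values in both tables also included both patterns, and genes that passed in LLC1 alone. SLC3A2 fell in both, by 0.72 ± 0.07 in the authors' deposited table and by 1.10 ± 0.07 in LLC1 (log2, SE). IDH1, an NADPH-forming dehydrogenase, rose by 0.52 ± 0.07 and 1.64 ± 0.07, SESN2 by 1.18 ± 0.23 and 0.98 ± 0.07 and LANCL1 by 0.54 ± 0.07 and 0.86 ± 0.16. Opposite values were found for AKR1B10, which fell by 2.09 ± 0.05 in the authors' deposited table while Akr1b10 rose by 1.54 ± 0.07. XDH fell by 1.04 ± 0.25 and Xdh rose by 2.36 ± 0.07, and CTH rose by 1.65 ± 0.27 while Cth fell by 1.23 ± 0.07. The LLC1 changes are on the log2(value + 1) scale, which understates changes of low genes, so sizes are not comparable between lines. For Cth the ratio of overexpression to empty vector means was 0.074. Abhd4, Ptgr1, Gsto1 and Slc48a1 rose in LLC1 by 2.07, 1.51, 1.50 and 1.34. In the libraries labelled H358 these genes stood at 0.00, 0.03, -0.04 and 0.21 and did not pass. Palb2, Bach2 and Dhodh fell in LLC1, and their human genes did not pass either. The differences between lines of these other genes were not tested.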

How the data were processed

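Members and lists were chosen with earlier results of these data known. Libraries were directional and made from total RNA without ribosomal RNA, per the labels' protocols. Per the submitters' processing notes, FastQC, STAR, featureCounts, MultiQC, mm10 and hg19 were used, with versions and roles not given in the sources used here. For the libraries labelled H358 the authors deposited a comparison of 20347 genes, with a mean signal over libraries, a log2 fold change, the error and the statistic of that change (both of unit score) and raw and adjusted p-values, the latter missing in 1193 genes. In all 20347 the statistic equals change over error within 0.001, which does not settle whether changes were shrunk. Own steps were 95% intervals and counts of genes. The LLC1 table deposited by the authors gives a signal for 2509 selected rows. It was fitted with limma 3.58.1 in R 4.3.3 (mean-variance trend, log2(value + 1), which understates changes of low genes; mean of 0.5 or more; Benjamini-Hochberg over 2111 rows). The design had foreseen count tests, and the files held no counts. Whether libraries came from separate cultures is not stated, so p-values measure the spread between libraries, which may be technical. The control columns give a group but no labelled library. Lines were compared, after the data were seen, by the difference of changes over the root of summed squared errors with the limma degrees of freedom (9.19), adjusted over 6 genes. From each other list the text names up to 4 called genes, those with the largest change at a mean signal of 50 or more. Every tested LLC1 gene is named as well. CD68, EGFL7, CDH5, CHAC2, GGCT, BACH1, ALDH3A1 and SLC3A2 were named after their values were seen. So were VIM, the epithelial markers, the LLC1 markers and the genes set side by side between lines. TRIM16L has 2 rows, and the one with more signal was used. Promoters were read from RefSeq windows for GRCm38.p6. Some results are not reported here. The deposited circular RNA signal table served only for the overlap count.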

Additional observations from a re-analysis of the deposited data

Results flagged for a closer look

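For 5 of the 6 genes measured in both lines, the difference in change between LLC1 and the libraries labelled H358 passed the threshold. The measure was the difference over its error (limma in LLC1, the authors' deposited table in H358, adjusted over the 6 genes). The change in LLC1 was larger by 1.90 ± 0.14 for Hmox1 (log2, SE; adjusted p = 5.36e-07), by 1.58 ± 0.09 for Ephx1 (adjusted p = 1.01e-07) and by 1.34 ± 0.10 for Mgst1 (adjusted p = 5.36e-07). It was larger by 0.56 ± 0.13 for Pir (adjusted p = 0.00352) and by 0.35 ± 0.11 for Cat (adjusted p = 0.0144). The direction differed in Hmox1 and Mgst1. The LLC1 rows were selected as changed, which favours a larger change there, and the scales differ, since 1 was added to values in LLC1. The adjusted p-values therefore do not show that the lines differ in these genes.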

How the results depend on the processing

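In the libraries labelled H358, 17 genes fell and 11 rose. With a log2 change of 0.5 or more as well, 7 fell and 4 rose, and by the authors' own flag, an alternative chosen after seeing the data, 1 fell and 0 rose, since both rules ask for a larger change. The other settings tried (adjusted p of 0.01, adjustment over every p-value, a mean signal of 10 or more, centring on the median gene) kept both counts within 1.5 times. At 0.01 the calls for GSS, PRDX1, SOD2, TKT and HMOX1 were lost. No gene that passed turned its direction. Centring on the median gene turned the sign of 3 that had not passed, SOD1 (-0.0064), NQO1 (-0.0066) and CBR1 (-0.023). In LLC1 all 6 genes remained higher under a pseudocount of 0.1, no filter and median centring. With the replicate block on the number in the column names, all 6 rose as well. Same-numbered columns correlated at 0.049, 0.0256 and 0.071 in their deviations, and each overexpression column correlated best with its own number except the second. Values this weak neither show nor exclude that the numbers pair libraries. Without single libraries the count stayed at 6. The rows of this table had been selected as changed and nearly all pass, so these kept calls say nothing about the 6 genes. No paired analysis was possible because the human columns hold no single libraries, and none could be left out. Depth is unknown in both tables.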

Other observations

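Among the LLC1 rows under the mean of 0.5, the pathway genes Alox5 and Msrb3 had groups that did not overlap. Alox5, a lipoxygenase gene, was listed at 0 in 2 control libraries and at 0.0176 in the third, and at 0.837, 0.849 and 0.543 with cEmsy overexpression. Msrb3, a methionine sulfoxide reductase gene, went from 0.060 ± 0.025 to 0.350 ± 0.065 (SD, n = 3 per group). In the authors' deposited table MSRB3 fell by 0.62 ± 0.10 (log2, SE).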
